A study of Mus musculus with 8 samples.

Results

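The steroid hormone receptors and the estrogen target Greb1 were examined in libraries, with and without LRP1, that the paper describes as liver endothelial cells (ECs). A check of this name against markers is given below. The set held 7 of the 22520 protein-coding genes in the deposited table and was chosen by name: the estrogen receptors Esr1 and Esr2, the progesterone receptor Pgr, the glucocorticoid receptor Nr3c1, the mineralocorticoid receptor Nr3c2, the membrane estrogen receptor Gper1, and Greb1. Gper1 was listed under its older symbol Gpr30. Esr1 was selected on its rise in this comparison, so its values are a description without a test, and it supports nothing about the set.

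The data were mRNA-seq signals of 4 WT and 4 LRP1 eKO libraries. LRP1 eKO mice carried floxed Lrp1 alleles with Cdh5-CreER+/-, and WT mice were littermates with floxed alleles and Cdh5-CreER-/-, so the eKO group alone had the Cre transgene. The labels give the genotypes as Wild type and LRP1 KO, the strain as C57BL/6, the age as postnatal day 14 and the cells as liver microvesicular cells, and the methods describe selection with PECAM-1 antibody beads. The Cdh5 promoter is active in endothelium. CreER is Cre recombinase fused to a mutated hormone-binding domain of the estrogen receptor, and in CreERT2, the form in the Cdh5 (PAC) line, that domain is of human origin. The methods also list a CAG-CreER line without saying where it was used, while the RNA-seq mice are described with Cdh5-CreER only. The sources used here do not state how Cre was induced for these libraries, the sex of the mice, or whether each library came from a separate animal. P-values therefore measure the spread between these libraries, which may be technical.

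Receptors of steroids in the NR3 family are transcription factors that wait for their hormone in complexes with Hsp90 and its cochaperones. With hormone, they bind response elements in DNA and recruit coactivators or corepressors. In endothelium, the product of Esr1 (ERα) is known for raising nitric oxide production through Akt and eNOS, and the glucocorticoid receptor for dampening inflammation. The estrogen response element is a palindrome of AGGTCA and TGACCT spaced by any 3 bases.

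Esr1 lies on chromosome 10 of GRCm38 from 4611593 to 5005614, on the plus strand. One of its exons is shown because it encodes a part of the hormone-binding domain, the domain that CreER also carries. It is exon 8 of the 9 exons in the transcript used, with 184 bases at chr10:4997830-4998013 on the plus strand. The signal of a gene is a single value, so signals of this exon and of the other exons could not be separated.

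Esr1 exon 8: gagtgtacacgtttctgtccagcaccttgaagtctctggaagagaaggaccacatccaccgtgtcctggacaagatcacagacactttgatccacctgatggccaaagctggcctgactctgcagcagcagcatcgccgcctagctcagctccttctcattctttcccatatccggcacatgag

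Greb1 lies on chromosome 12 of GRCm38 from 16670615 to 16800886, on the minus strand. Its 250 upstream bases from RefSeq (GRCm38.p6, chr12:16800887-16801136, minus strand) are shown because they hold TGACCT, a single arm of the estrogen response element, 88 bases before the start. The capitals mark that match.

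Greb1 upstream: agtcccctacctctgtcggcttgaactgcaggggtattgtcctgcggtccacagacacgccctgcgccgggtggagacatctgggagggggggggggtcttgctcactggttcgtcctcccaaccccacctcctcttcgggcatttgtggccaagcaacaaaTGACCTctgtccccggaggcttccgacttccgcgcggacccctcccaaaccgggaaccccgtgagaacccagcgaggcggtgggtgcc

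A search of both strands found AGGTCA or TGACCT in 4607 of 32851 RefSeq upstream windows of this length, or 14.0%. The palindrome core GGTCANNNTGACC was found in 21 windows (0.064%). The glucocorticoid motif GNACANNNTGTNC was found in 127 windows (0.387%). RefSeq windows were matched for 6 of the 7 members, 8 windows in all. Neither the palindrome nor the glucocorticoid motif was in any of the 8, and a window of Greb1 was the only one with AGGTCA or TGACCT.

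Signals were quantile-normalized by the authors, their unit before that step is not stated, and, apart from the check of the label against markers, levels are compared between libraries and not between genes. They were tested as log2(signal + 1) with limma over all genes, and fold changes on this scale understate those of low genes. A gene passed at a Benjamini-Hochberg adjusted p below 0.05. The filter asked for a signal of 1 or more in 4 or more libraries. Of the 11391 genes left, 2164 were higher in LRP1 eKO libraries (19.0%) and 2526 were lower (22.2%). With a 2-fold threshold, 99 were higher (0.869%) and 90 were lower (0.79%). Of the members, 2 passed this filter, Nr3c1 in all 8 libraries and Esr1 only through the 4 LRP1 eKO libraries. The other 5 members were taken from a fit of the 17959 genes with any signal, where 12.0% of genes were higher and 15.3% were lower. In that fit, every LRP1 eKO library was above every WT library for 14.6% of genes.

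The libraries summed to between 484445 and 485947 by normalization, so their depth is unknown, and between 6186 and 6621 genes were listed at 0. Across genes, log2 signals correlated between 0.985 and 0.998 within groups and between 0.964 and 0.981 across groups. WT replicate 4 was farthest from its group's median for 61.7% of genes, and LRP1 eKO replicate 2 for 37.2%. Lrp1, the targeted gene, had signals of 61.6, 59.0, 56.2 and 85.1 in WT libraries and of 6.01, 2.16, 5.15 and 4.32 in LRP1 eKO libraries. The Lrp1 signal left in the latter was 6.74% of the WT mean. The label was checked against markers. All 12 endothelial markers were above 0 in every library, but the defining ones were low on the deposited scale, with Pecam1, the antigen of the selection, at 2.09 ± 0.416 in WT libraries against 3.02 ± 0.911 in the LRP1 eKO group (SD, n = 4). Mesothelial, epithelial and mesenchymal genes, chosen after their values were seen, stood much higher, with Msln at 1020 ± 125 and 1305 ± 51.0, Wt1 at 103 ± 6.91 and 97.8 ± 4.17, Krt7 at 141 ± 5.33 and 113 ± 3.83, and Dcn at 554 to 581 and 441 to 486. Whether the signal had been divided by length is not stated; across 11328 genes it had a Spearman correlation of -0.147 with exon length. By these markers, the libraries held abundant mesothelial, epithelial and mesenchymal transcripts beside the endothelial ones that the label names. In bulk RNA, a change in the number of cells of a type and a change in RNA per cell cannot be told apart.

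Esr1, which encodes ERα, had the second largest rise in log2 fold change of the 11391 genes tested, and the third largest change when falls are counted too. Its signals were 0.165, 0.209, 0.258 and 0.183 in WT libraries and 12.5, 12.7, 12.5 and 12.0 in LRP1 eKO libraries. All 4 LRP1 eKO libraries were close to each other and far above every WT library. The means were 0.203 ± 0.0404 and 12.4 ± 0.273 (SD, n = 4), a ratio of 61.0, and the lowest LRP1 eKO library was 46.7 times the highest WT library. The log2 fold change was 3.48 (standard error 0.055) and ranged from 1.74 with a pseudocount of 5 to 5.37 with a pseudocount of 0.1. In the 4 coding transcripts of Esr1, of 10 annotated, no 50-base stretch of the 7750 occurs in a transcript of another gene. However, the annotation holds no CreER transgene, and the match of its reads to Esr1 was not examined.

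The spread of Esr1 among LRP1 eKO libraries was small. Its coefficient of variation was 2.20% there, against 19.9% among WT libraries. Of the 4597 genes with an LRP1 eKO mean within 2-fold of that of Esr1, 93.4% had a larger coefficient of variation, and their median was 5.82%. Cdh5, whose promoter drives CreER, varied more among LRP1 eKO libraries, and its relation to the Esr1 signal was not tested. Its signals were 1.90, 2.27, 2.03 and 1.26 in WT libraries and 4.99, 2.21, 4.65 and 2.94 in LRP1 eKO libraries, so that the groups overlapped. Among LRP1 eKO libraries, the highest value was 1.05 times the lowest for Esr1, 2.25 times for Cdh5 and 2.78 times for Lrp1. LRP1 eKO replicate 2 had the lowest Cdh5 and the highest Esr1 signal of its group. Cdh5 was higher in LRP1 eKO libraries (log2 fold change 0.68, standard error 0.20, limma adjusted p = 0.0205), but its adjusted p was 0.0512 without WT replicate 4, 0.0534 without LRP1 eKO replicate 1 and 0.0567 without LRP1 eKO replicate 3.

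**Figure D1:**
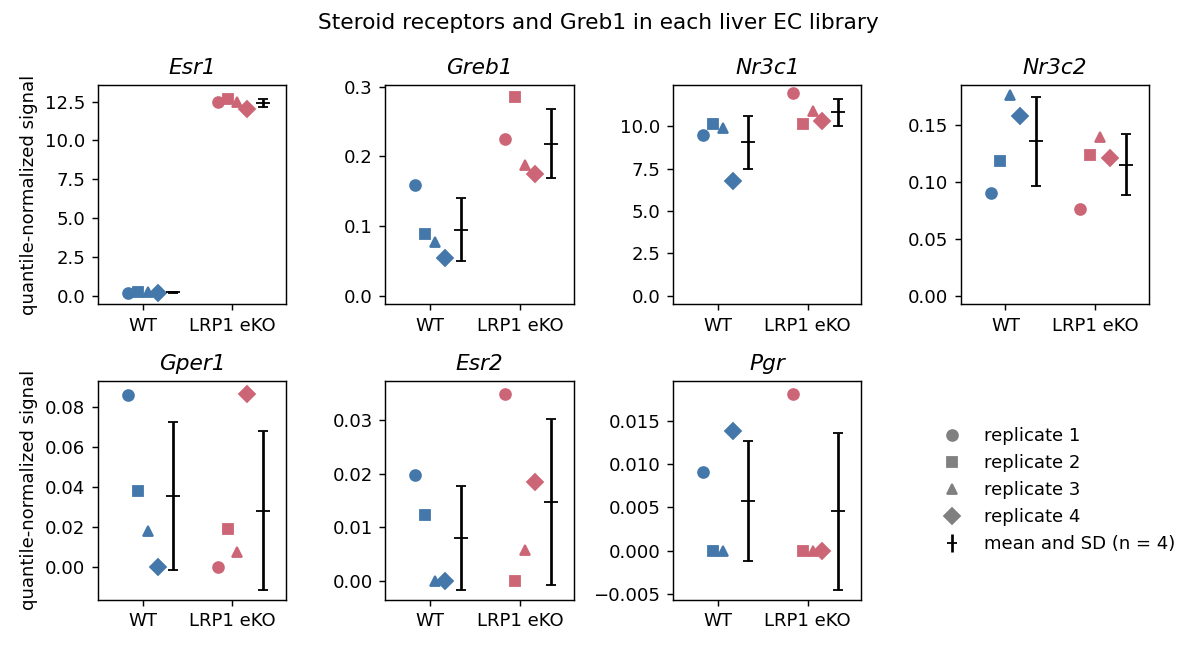
Quantile-normalized signal of each member in the 4 WT (blue) and 4 LRP1 eKO (red) libraries, with a linear vertical axis of its own per gene. The symbol gives the replicate and the black bar the mean and SD (n = 4). Esr1 stands between 12.0 and 12.7 in LRP1 eKO libraries against 0.165 to 0.258 in WT libraries, Greb1 separates the groups at signals below 0.3, and the low members Nr3c2, Gper1, Esr2 and Pgr overlap.

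Several cell type marker lists differed by genotype beside Esr1, and their part in its rise was not tested. Among all genes tested, 19.0% were higher and 22.2% were lower. Beside these, the tested markers higher were 37.5% of endothelial, 33.3% of sinusoidal, 11.1% of macrophage, 14.3% of stellate and 75.0% of Y chromosome genes. Those lower were 100% of hepatocyte and of muscle, 28.6% of stellate and 33.3% of cholangiocyte markers. The summed signal of the 12 endothelial markers was 50.9 to 53.3 in WT and 59.5 to 83.7 in LRP1 eKO libraries, with 3 of the 8 tested markers higher (Eng, Esam and Cdh5). Of the 4 below the filter, Robo4 and Tek were higher in the fit of all genes with signal. In that fit Cldn5, a tight junction protein of endothelium, was lower (1.08 in WT against 0.673 in LRP1 eKO samples, log2 fold change -0.32, limma adjusted p = 0.00688). The rise of Tek was fragile. It kept passing when WT replicate 3 or LRP1 eKO replicate 2 was dropped. Dropping any other single library moved the limma adjusted p of Tek to between 0.058 and 0.11. Tek also missed the threshold with a pseudocount of 0.1 (0.051) and with no trend (0.055). Without LRP1 eKO replicate 2, 5 endothelial markers passed as higher, and without WT replicate 4 or LRP1 eKO replicate 1 or 3, 2 did. The 10 hepatocyte markers summed to 1479 to 1535 and 612 to 898, and all 5 tested markers were lower, with a median log2 fold change of -1.47. The 12 macrophage markers summed to 113 to 222 in WT libraries, to 52.8 in LRP1 eKO replicate 2 and to as much as 734 in another LRP1 eKO library, and 1 of the 9 tested markers, Csf1r, passed as higher. This count rested on single libraries. Without LRP1 eKO replicate 2, all 10 macrophage markers then tested were higher. When any other library was left out, Csf1r had an adjusted p of 0.0553 to 0.0796, and no macrophage marker past the filter was called. Of the 3 below the filter, Clec4f was higher in the fit of all genes with signal. It kept passing in every alternative, with a limma adjusted p of 0.00128 to 0.0447. Of 9 lymphocyte markers, none reached the filter. All 4 tested skeletal muscle markers were lower. The 4 Y chromosome genes summed to 17.7 to 21.4 in WT and to 26.4 to 30.7 in LRP1 eKO libraries, and 3 of them were higher. The 9 sinusoidal endothelial markers summed to 38.8 to 42.2 in WT and 40.4 to 63.8 in LRP1 eKO libraries, with 2 of 6 tested markers higher, and 6 of 7 without LRP1 eKO replicate 2. The 10 stellate and fibroblast markers summed to 1300 to 1423 and 1142 to 1387, with 1 of 7 tested higher (2 without WT replicate 4) and 2 lower (Dcn and Lum). The 7 cholangiocyte markers summed to 301 to 356 in WT and to 234 to 696 in LRP1 eKO libraries, with Krt7 lower of the 3 tested. Krt19 (adjusted p = 0.0596) and Spp1 (0.144) did not pass, but both were higher without LRP1 eKO replicate 2, and 1 of them without WT replicate 4. Of the 4 below the filter, Sox9 and Cldn4 were higher in the fit of all genes with signal. Both kept passing in every alternative, with limma adjusted p-values of up to 0.0225 for Sox9 and 0.0361 for Cldn4. LRP1 eKO replicate 2, the lowest LRP1 eKO library in the endothelial, sinusoidal, hepatocyte, macrophage, stellate and cholangiocyte sums, had an Esr1 signal of 12.7, where the group ranged from 12.0 to 12.7.

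**Figure D2:**
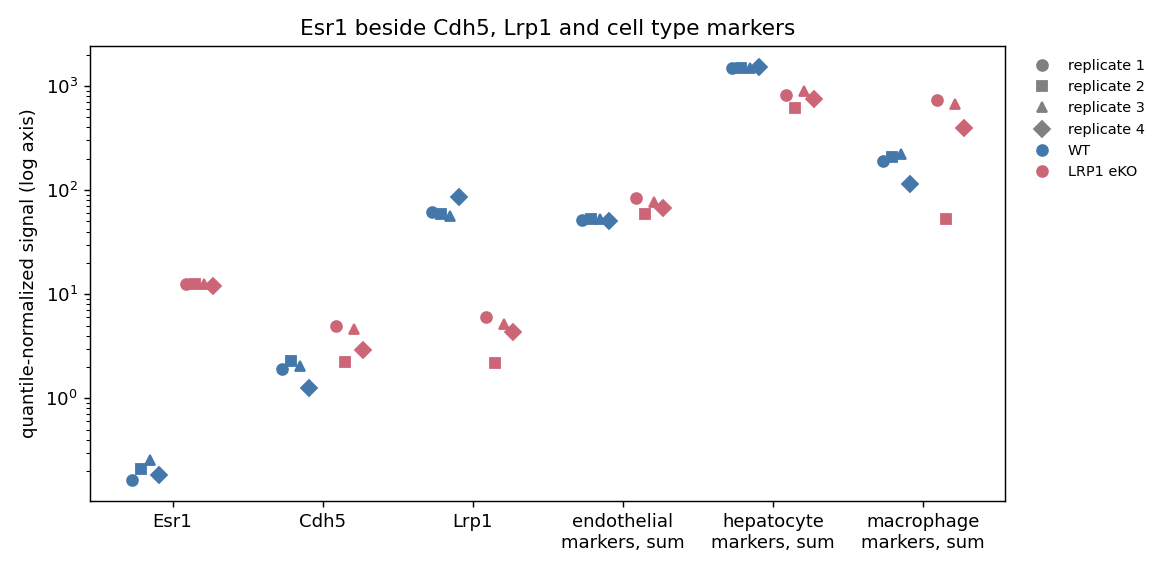
Signals of Esr1, Cdh5 and Lrp1 and the summed signals of the endothelial, hepatocyte and macrophage marker lists in each library, on a log axis, with WT in blue, LRP1 eKO in red and the symbol giving the replicate. The 4 LRP1 eKO values of Esr1 lie within 1.05 times of each other, while those of Cdh5 and of the macrophage markers spread over 2.25 times and from 52.8 to 734.

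By genotype, LRP1 eKO libraries held both the Cdh5-CreER transgene and the deletion of Lrp1, and WT libraries held neither. A signal from CreER transcripts and a signal from the Esr1 locus cannot be told apart with a single value per gene and no library with the transgene and intact Lrp1.

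The genes around Esr1 did not rise with it as a block. The annotation places 8 protein-coding genes of the table within 500 kb. The entry of Syne1, a nuclear envelope gene, that the annotation places here lies 15.3 kb away on the far side. It was at 0.105 ± 0.0221 in WT against 0.139 ± 0.0374 in LRP1 eKO samples (SD, n = 4, limma adjusted p = 0.255). The deposited table also lists the symbol Syne1 under another gene identifier, whose signal was not examined. Ccdc170, the nearest gene upstream at a distance of 49.4 kb, was at 0.0755 ± 0.0476 and 0.0753 ± 0.0178 (adjusted p = 0.989). Akap12, which encodes a scaffold protein for protein kinases, lies 252 kb away and was higher, with 44.6 ± 7.67 and 96.5 ± 3.96 and a log2 fold change of 1.11 (standard error 0.11, limma adjusted p = 6.2e-05). Armt1 was slightly lower, with a log2 fold change of -0.14 (adjusted p = 0.0362). Without WT replicate 1, 2 or 3 its adjusted p was 0.0852, 0.0565 or 0.0747, and without LRP1 eKO replicate 1, 2 or 3 it was 0.0697, 0.0862 or 0.0799. Mthfd1l, Zbtb2 and Rmnd1 did not pass, with adjusted p-values of 0.691, 0.331 and 0.310. Gm10097 was listed at 0 in every library.

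**Figure D3:**
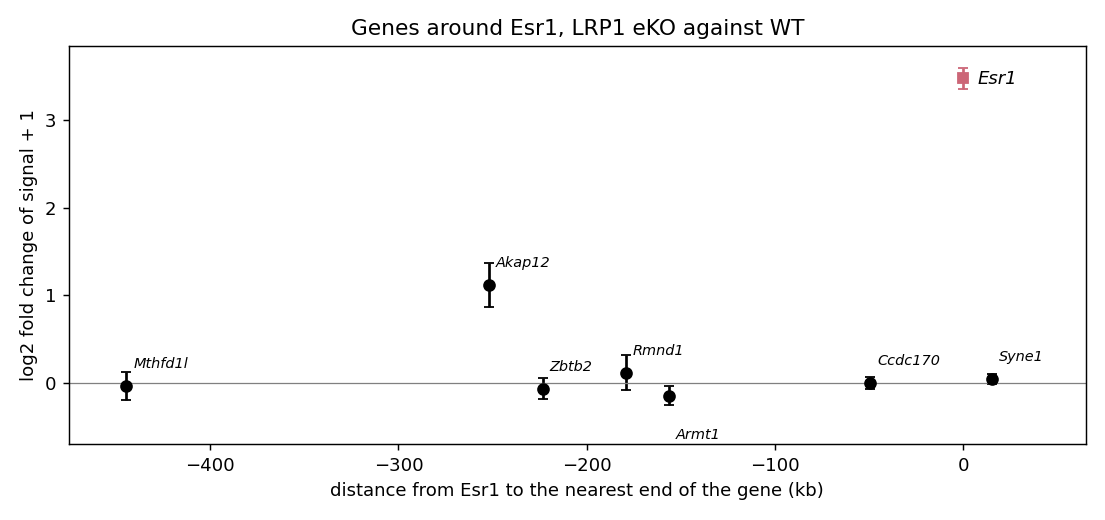
Log2 fold change of signal + 1, LRP1 eKO against WT, of Esr1 (red square) and of its annotated neighbours (black points) against the distance in kb from Esr1 to the nearest end of each gene, with 95% intervals from limma. Esr1 is at 3.48 and Akap12 at 1.11, while the other 6 neighbours plotted lie between -0.14 and 0.12.

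By the profile over the 8 libraries, the genes most like Esr1 were Ifit1, Usp18, Isg15, Ifi44 and Apol9b. The root mean square difference of their gene-centred log2 signals from those of Esr1 was 0.130, 0.144, 0.152, 0.167 and 0.375. Ifit1, which encodes an antiviral RNA-binding protein, was at 1.78 ± 0.293 in WT libraries and at 28.4 ± 1.25 in LRP1 eKO libraries (SD, n = 4). These genes were found by the same contrast that chose Esr1, and the likeness is a description.

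Greb1, an estrogen-induced gene that encodes a cofactor of ERα in breast cancer cells, was the only tested member that passed. Its signals were 0.159, 0.0878, 0.0768 and 0.0541 in WT libraries and 0.226, 0.285, 0.188 and 0.175 in LRP1 eKO libraries. Every LRP1 eKO library was above every WT library, as for 14.6% of all genes with any signal. The ratio of means was 2.31, from 0.0944 ± 0.0452 to 0.218 ± 0.0492 (SD, n = 4). The log2 fold change was 0.15 (95% interval 0.0691 to 0.241, limma adjusted p = 0.0179; exact two-sided permutation p = 0.0286, the smallest that 4 libraries against 4 allow). All its signals were below 0.3. Of the 50-base stretches of its coding transcripts, 6.67% also occur in transcripts of other genes, where reads could be assigned to either. Without both WT replicate 4 and LRP1 eKO replicate 2, a setting chosen after the data were seen, the adjusted p was 0.0503.

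Pgr, the progesterone receptor and the other classical estrogen target in the set (chromosome 9, 8899833 to 8968611, plus strand), was at or near 0. It was listed at 0 in 5 of the 8 libraries, with signals of 0.00906 and 0.0139 in WT replicates 1 and 4 and of 0.0182 in LRP1 eKO replicate 1. The log2 fold change was -0.0017 (95% interval -0.0247 to 0.0212, limma adjusted p = 0.915).

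Esr2, which encodes ERβ (chromosome 12, 76120419 to 76177259, minus strand), was also near 0. Its signals were 0.0197, 0.0123, 0 and 0 in WT libraries and 0.0348, 0, 0.00565 and 0.0184 in LRP1 eKO libraries. The groups overlapped, and the log2 fold change was 0.0095 (95% interval -0.0212 to 0.0402, adjusted p = 0.638). Gper1, the G protein-coupled estrogen receptor (chromosome 5, 139423151 to 139427800, plus strand), had signals of 0.0861, 0.0380, 0.0182 and 0 in WT libraries and of 0, 0.0188, 0.00753 and 0.0863 in LRP1 eKO libraries. They spanned the same range in both groups (log2 fold change -0.010, 95% interval -0.0875 to 0.0666, adjusted p = 0.848). The intervals of Pgr, Esr2 and Gper1 reached no lower than -0.0875 and no higher than 0.0666 on this scale, within which a change was not detectable.

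Nr3c1, the glucocorticoid receptor, lies on chromosome 18 from 39410545 to 39519421 on the minus strand. Its signals were 9.49, 10.1, 9.93 and 6.77 in WT libraries and 12.0, 10.1, 10.9 and 10.3 in LRP1 eKO libraries. Every LRP1 eKO library was above every WT library, but the highest WT and the lowest LRP1 eKO library were almost level, and WT replicate 4 was well below its group. The means were 9.08 ± 1.56 and 10.8 ± 0.813 (SD, n = 4), and the log2 fold change was 0.24 (95% interval -0.0038 to 0.492, limma adjusted p = 0.103; exact two-sided permutation p = 0.0286, the smallest possible here). The change did not pass in limma, nor did it in any alternative, where the adjusted p was between 0.0662 and 0.224. Without WT replicate 4 the log2 fold change was 0.12. Nr3c2, the mineralocorticoid receptor (chromosome 8, 76899442 to 77245012, plus strand), had signals of 0.0898, 0.118, 0.177 and 0.158 in WT libraries and of 0.0764, 0.124, 0.139 and 0.121 in LRP1 eKO libraries. The groups overlapped, with a log2 fold change of -0.026 (95% interval -0.0909 to 0.0388, adjusted p = 0.541).

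The estrogen-related receptors, orphan receptors of the NR3 family, showed no change past the threshold. Esrra, a regulator of mitochondrial genes, was at 13.9 ± 0.513 in WT against 14.9 ± 0.715 in LRP1 eKO samples (SD, n = 4; limma adjusted p = 0.180). Esrrg was at 0.0982 ± 0.0896 and 0.0407 ± 0.0308 (adjusted p = 0.355), and Esrrb was listed at 0 in 7 of the 8 libraries. Of the membrane receptors and binding proteins of progesterone and estrogen, 4 of 8 were tested, and 2 were lower, where 22.2% of all genes tested were. The membrane progestin receptor Paqr7 had a log2 fold change of -0.34 (standard error 0.066, adjusted p = 0.00316), and the heme-binding membrane protein Pgrmc1 had -0.20 (standard error 0.045, adjusted p = 0.00606). Pgrmc2 and Paqr8 did not pass.

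Genes known to be induced by estrogen, mostly in breast and uterus, did not move one way. Of 40 listed genes, 24 passed the filter, 6 were higher, 6 were lower and 12 did not pass, against 19.0% higher and 22.2% lower among all genes tested. Their median log2 fold change was 0.033, beside -0.0095 for all genes. The genes that rose were Ccnd1, Myc, Ctsd, Nrip1, Fhl2 and Igf1. Ccnd1, the cyclin that drives G1 progression, rose from a range of 14.1 to 17.8 in WT libraries to 29.6 to 30.6 in LRP1 eKO libraries (log2 fold change 0.81, limma adjusted p = 2.6e-05). Myc, a growth-promoting transcription factor, rose from 14.2 to 16.2 to a range of 22.6 to 24.9 (log2 fold change 0.61, adjusted p = 2.6e-05). The genes that fell were Igfbp4, Cxcl12, C3, Xbp1, Wnt4 and Olfm1. Igfbp4, an IGF-binding protein, fell past the 2-fold threshold, from 142 to 172 in WT libraries to 65.6 to 95.2 in LRP1 eKO libraries (log2 fold change -1.02, adjusted p = 8.7e-05). Cxcl12, the ligand of Cxcr4, fell from 183 to 192 to a range of 79.5 to 104 (log2 fold change -0.97, adjusted p = 1.6e-05). Of these 12 genes, 4 lost their call when single libraries were left out. The adjusted p of Igf1 was 0.0518 to 0.0987 without any library other than LRP1 eKO replicate 2, and that of Fhl2 was 0.0569 to 0.0750 without any other than WT replicate 4 or LRP1 eKO replicate 3. Wnt4 was lost without LRP1 eKO replicate 2 or 4 (0.0540 and 0.0544), and Olfm1 when LRP1 eKO replicate 1, 2 or 4 or WT replicate 1 or 2 was left out (0.0505 to 0.0824). Among the 16 genes below the filter were Greb1 and Pgr, and Tff1, a classical estrogen target, was listed at 0 in every library.

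Genes of the endothelial response to estrogen changed in both directions. Of 18 listed genes, 17 were tested, 7 were higher (Vegfa, Akt1, Gnai2, Cav1, Fgf2 and Strn among them) and 3 were lower (Cxcl12, Edn1 and Ptgis), which is 41.2% and 17.6% beside 19.0% and 22.2% of all genes tested, with a median log2 fold change of 0.049. Vegfa, an angiogenic growth factor, rose from 35.3 to 44.2 in WT libraries to 67.5 to 76.6 in LRP1 eKO libraries (log2 fold change 0.78, limma adjusted p = 3.5e-05). Akt1, the kinase upstream of eNOS, rose from 95.3 to 102 to a range of 117 to 130 (log2 fold change 0.29, adjusted p = 0.00104). Edn1, the precursor of the vasoconstrictor endothelin, fell from 16.6 to 19.6 to a range of 11.5 to 12.7 (log2 fold change -0.52, adjusted p = 0.000147). Nos3, which encodes eNOS itself, was below the filter, at 0.163 ± 0.0501 and 0.128 ± 0.0449 (SD, n = 4; adjusted p = 0.444). Without LRP1 eKO replicate 1 or 3, 4 genes of the list were higher in each case, and Fgf2 and Strn were among those lost (adjusted p of 0.0700 to 0.0984). Fgf2 was also lost without LRP1 eKO replicate 4 (0.0524), and Strn without LRP1 eKO replicate 2 or 4 or WT replicate 2 (0.0608 to 0.0863).

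Coregulators of the receptors changed by less than 2-fold. Of 30 listed, 27 were tested, 7 were higher and 3 were lower (25.9% and 11.1%, against 19.0% and 22.2% of all genes tested), with a median log2 fold change of 0.081. The coactivator Ncoa3 was higher with a log2 fold change of 0.32 (standard error 0.054, limma adjusted p = 0.00137). Nrip1, a corepressor that is itself induced by estrogen and stands in both lists, was higher with 0.36 (adjusted p = 0.0169). Pelp1, which links ERα to Src signalling, was lower with -0.42 (standard error 0.050, adjusted p = 0.000177), and the pioneer factor Foxa2 with -0.54 (adjusted p = 0.00331). Of the 15 chaperones of steroid receptor complexes, 1 was higher and 1 was lower (6.67% each, against 19.0% and 22.2% of all genes tested). The other 13 did not pass. Fkbp4 was lower by a log2 fold change of -0.31 (standard error 0.040, adjusted p = 0.000295). Fkbp5, an Hsp90 cochaperone that glucocorticoids induce, was higher by 0.22 (adjusted p = 0.0334). Its adjusted p was 0.0575 without WT replicate 1, and 0.0741, 0.0529, 0.0806 and 0.0541 without LRP1 eKO replicates 1, 2, 3 and 4 in turn.

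Among genes known to be induced by glucocorticoids, the shares that rose (16.0%) and fell (28.0%) were near those of all genes tested (19.0% and 22.2%). Of 27 listed, 25 were tested, 4 were higher (Dusp1, Anxa1, Nfkbia and Fkbp5) and 7 were lower (Sult1a1, Cebpb, Klf15, Ddit4, Mt1, Mt2 and Pdk4), with a median log2 fold change of -0.11. Sult1a1, a sulfotransferase, was the one that passed the 2-fold threshold, with 21.1 to 24.4 in WT libraries and 8.60 to 11.5 in LRP1 eKO libraries (log2 fold change -1.14, limma adjusted p = 9.2e-06). Klf15, a metabolic transcription factor, was at 5.22 ± 0.526 and 2.53 ± 0.433 (SD, n = 4; log2 fold change -0.82, adjusted p = 0.000167). Dusp1, a phosphatase that inactivates MAP kinases, was at 15.6 ± 1.89 and 26.9 ± 1.26 (log2 fold change 0.76, adjusted p = 9.6e-05). Tsc22d3 and Per1, also induced by glucocorticoids, did not pass, with adjusted p-values of 0.505 and 0.203. Without LRP1 eKO replicate 1 or 4, 2 genes were higher, and without WT replicate 4, 11 genes were lower. Nfkbia was lost when LRP1 eKO replicate 1 or 4 or WT replicate 2 or 3 was left out (adjusted p of 0.0533 to 0.0771), and Pdk4 without LRP1 eKO replicate 4 or WT replicate 1, 2 or 3 (0.0538 to 0.0738). Several of the lower genes are also made by hepatocytes, whose 5 tested markers fell in the same libraries, and the part of this in the count was not tested.

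Of 14 genes of the mineralocorticoid response, 10 were tested, 3 were higher and 3 were lower, where 19.0% and 22.2% of all genes tested were (median log2 fold change -0.023). The kinase Wnk1 was higher, with 43.5 ± 4.25 in WT against 72.7 ± 2.61 in LRP1 eKO samples (SD, n = 4; log2 fold change 0.73, limma adjusted p = 4.0e-05). Edn1, described above with the endothelial genes, was among the lower ones. Without WT replicate 4, 5 genes of this list were lower.

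Among enzymes and carriers of steroid hormones, the 2 with the largest changes, Srd5a2 and Cyp7b1, fell. Of 36 listed, 14 were tested, 2 were higher (14.3%, against 19.0% of all genes tested) and 5 were lower (35.7%, against 22.2%), with a median log2 fold change of -0.080. Srd5a2, which reduces testosterone to dihydrotestosterone, was at 7.67 ± 1.30 in WT against 2.99 ± 0.440 in LRP1 eKO samples (SD, n = 4; log2 fold change -1.11, limma adjusted p = 0.000109). Cyp7b1, an oxysterol hydroxylase, was at 2.01 ± 0.265 and 0.604 ± 0.0899 (log2 fold change -0.91, adjusted p = 2.4e-05). Cyp19a1, the aromatase that makes estrogen, was listed at 0 in every library. The 2 higher genes were Hsd17b7 and Cyp1b1, and no more than 1 of them passed when any single library was left out. Hsd17b7 was lost when LRP1 eKO replicate 2 or 4 or WT replicate 1 or 4 was left out (adjusted p of 0.0697 to 0.0833), and Cyp1b1 without any library other than LRP1 eKO replicate 2 (0.0530 to 0.0934). Of 19 enzymes that metabolize tamoxifen or answer to aryl hydrocarbons, 9 were tested, 6 were lower (66.7%, against 22.2% of all genes tested) and 1, Cyp1b1, was higher (11.1%, against 19.0%), with a median log2 fold change of -0.43. Sult1a1 stands in this list too, and Cyp2d22 had a log2 fold change of -0.43 (standard error 0.064, adjusted p = 0.000654), beside the lower hepatocyte markers.

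**Figure D4:**
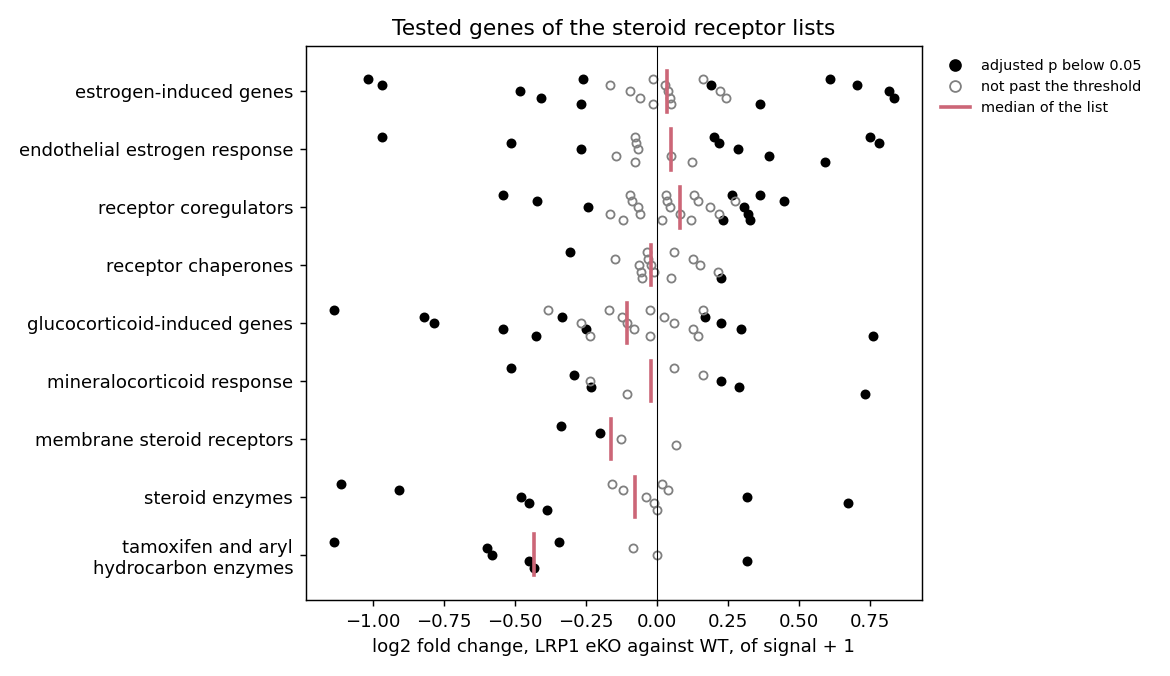
Log2 fold change of signal + 1, LRP1 eKO against WT, of each tested gene in 9 lists around the steroid receptors, with filled points for genes past a limma adjusted p of 0.05, open points for the others and a red bar at each list's median; Esr1 is not plotted. Estrogen-induced genes spread to both sides with 6 higher and 6 lower and a median of 0.033, while the median of the tamoxifen and aryl hydrocarbon enzymes is -0.43.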

How the data were processed

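The mRNA-seq of cells that the paper names liver ECs was analysed in 4 WT and 4 LRP1 eKO libraries, grouped by the labels. The authors deposited a quantile-normalized signal for 22520 genes. Their methods describe STAR, featureCounts and edgeR on mm10, while the submitters' processing notes name TopHat2 and Cufflinks. The depth is unknown, so no counting error was computed. From the signal, log2(signal + 1) was fitted with limma 3.58.1 in R 4.3.3 with a mean-variance trend in place of the count test of the methods, and exact permutation tests used scipy 1.17.1. Tested on simulated data for this comparison (11315 genes), the fit recovered 199 of 200 genes shifted by 1.5 log2 units and called 10 of 11115 unshifted ones. The simulated noise was independent between genes, and shifts were placed only on genes above a set mean signal. These rates therefore do not cover deviations shared by many genes of a library, or members below the filter. All simulated shifts were of 1.5 log2 units, so the recovery of smaller changes was not measured. Annotation was GENCODE M21 on GRCm38, which held 21740 of the gene identifiers. The members and lists were chosen with earlier results of these data known. Named were the members, NR3 receptors, Lrp1, Cdh5, genes within 500 kb of Esr1, the 5 profiles nearest to Esr1 and, per list, genes past the 2-fold threshold and up to 4 with the smallest adjusted p. Some genes that this rule names are not reported here. Other list members, markers and the mesothelial genes were named after their values were seen. Alternatives changed the pseudocount (0.1 or 5), the filter (none, or a mean of 5 or more), the moderation (no trend, or robust), the weights per library, the centring (mean after trimming 30% at both ends), the replicate block or the libraries left out. Plots used matplotlib 3.10.9 (Python 3.11.15).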

Additional observations from a re-analysis of the deposited data

Results flagged for a closer look

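Single libraries stood apart from their group in 5 of the 36 groups of 4 examined, where chance gives about 1.8. The measure is the gap to the nearest library divided by the range of the group, set against Dixon's critical value. Pgr in LRP1 eKO replicate 1 was the highest of its group, with a gap of 1.0, because the other LRP1 eKO libraries were listed at 0. WT replicate 4 was the lowest WT library in the summed signal of 3 lists, with gaps of 0.852 for the endothelial estrogen response, 0.931 for the coregulators and 0.878 for the steroid enzymes. WT replicate 4 was also the highest WT library in the summed hepatocyte markers, with a gap of 0.883.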

How the results depend on the processing

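Of the 301 recomputed values of the members, of the gene counts and of the estrogen, endothelial estrogen and glucocorticoid lists, 277 kept their direction and their side of the threshold or moved by less than the limit set for them. With pseudocounts of 0.1 and 5, the log2 fold change of Esr1 was 5.37 and 1.74, the genes higher by 2-fold were 149 and 40, and the genes lower by 2-fold were 166 and 26, as the construction of the scale requires. With a minimum mean signal of 5, 63 genes were higher by 2-fold among the 8318 genes then tested. The members other than Esr1 and Nr3c1 were not fitted. Without any filter, 17959 genes entered both the fit and the adjustment, and 4 genes of the endothelial estrogen list were higher. The cause of this change was not tested. Without both WT replicate 4 and LRP1 eKO replicate 2, Greb1 had a log2 fold change of 0.11 (adjusted p = 0.0503), Pgr one of 0.0043, and 173 genes were higher by 2-fold. With array weights, Pgr was at 0.0024. Leaving out 1 library at a time gave log2 fold changes of -0.0082 to 0.0022 for Pgr and of -0.037 to 0.013 for Gper1. The same settings gave 89 to 190 genes higher by 2-fold (190 without LRP1 eKO replicate 2). They gave 4 to 7 higher genes in the endothelial estrogen list, and 2 to 4 higher and 6 to 11 lower genes in the glucocorticoid list. The causes of the changes under array weights and left-out libraries were not tested. The remaining lists gave 215 of 252 counts within 1.5 times of the reported one.

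Same-numbered WT and LRP1 eKO libraries had deviations that correlated at -0.0856, -0.130, 0.178 and 0.0378 across genes, so the numbers were not taken to pair the libraries. With the replicate number as a block, the log2 fold change of Greb1 was 0.15 (adjusted p = 0.0232), that of Nr3c1 was 0.24 (adjusted p = 0.0769), 1975 genes were higher and 2210 lower, and no member changed its call. Depth is unknown, and the signals of Greb1, Nr3c2, Gper1, Esr2 and Pgr, all below 0.3, limit what could be detected.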
